A study of Mus musculus with 2 samples.

Results

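The expression of 10 receptor tyrosine kinase genes was measured by digital gene expression (DGE) tag profiling in the mouse cell lines GC-1spg and GC-2spd (ts). The receptors were given as a list of names, drawn up when earlier results of these data were known, and take in the receptors for platelet-derived growth factor (*Pdgfra*, *Pdgfrb*), the epidermal growth factor receptor family (*Egfr*, *Erbb2*, *Erbb3*), fibroblast growth factor receptors (*Fgfr1*, *Fgfr2*), the receptor for hepatocyte growth factor (*Met*), the Gas6 receptor (*Axl*) and a collagen receptor (*Ddr2*). All 10 were among the 14450 genes with an unambiguous sense tag. Both lines are transformed. For GC-1spg the source was type B spermatogonia, the donor 10 days old and the agent the plasmid pSV3-neo, and the labels place the line between that stage and the primary spermatocyte. For GC-2spd (ts) the source was spermatocytes, the donor 6 weeks old and the agent SV40 large T antigen, and the labels place the line before meiosis. Both lines grew in DMEM with 10% FBS, and 1 library was made from each. The stage, the age of the donor, the transforming agent as named and the line itself therefore cannot be told apart. Every test below compares these 2 libraries, not the cell lines. Clean tags numbered 5072149 for GC-1spg against 4726808 for GC-2spd (ts), so 1 copy of a tag was worth 0.197 and 0.212 tags per 1000000 clean tags (TPM), respectively.

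Receptor tyrosine kinases are single-pass membrane proteins whose outer part binds a ligand and whose inner part carries the kinase. Most pair up when the ligand binds, phosphorylate each other on tyrosines, and dock adaptor proteins that pass the signal to the Ras-ERK, PI3 kinase and phospholipase C pathways. In the testis, Pdgf receptors are known from peritubular and interstitial cells, Fgf receptors from both germ cells and somatic cells, and Axl, with its relatives Tyro3 and Mertk, from Sertoli cells, which use them in the uptake of dying germ cells. Ddr2 differs from the others in that its ligands are fibrillar collagens rather than soluble factors.

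Each value below is a sum of tags, and the tags are themselves short pieces of the receptor transcripts. The enzyme *Nla*III cuts at CATG, and a tag is CATG with the 17 bases that follow it in the transcript. The tag with the most copies is shown for 9 of the receptors, because it carries most or a large part of that receptor's count, together with another tag each of *Axl*, *Egfr* and *Ddr2*, which is compared with the first further on, and the main tag of *Gas6*, the Axl ligand. Each is written 5′ to 3′ along the messenger RNA. Capitals mark the *Nla*III site.
Axl, 78 bases from the 3′ end: CATGttgccccttgagccagt
Axl, 820 bases from the 3′ end: CATGttggaatactccagatc
Fgfr2, 129 bases from the 3′ end: CATGtatgcagattacactga
Fgfr1, 1101 bases from the 3′ end: CATGggggagacgcccagggt
Met, 49 bases from the 3′ end: CATGtgttaataattgttctg
Egfr, 4441 bases from the 3′ end: CATGttgatcacagagaacac
Egfr, 256 bases from the 3′ end: CATGttgattgtacattaagt
Ddr2, 1692 bases from the 3′ end: CATGcagattctggtctcctg
Ddr2, 5329 bases from the 3′ end: CATGaaataactaaaagaaga
Pdgfra, 45 bases from the 3′ end: CATGttttgttttaaaaagtg
Erbb2, 926 bases from the 3′ end: CATGacatccagggcagccgg
Erbb3, 368 bases from the 3′ end: CATGtgtgagcttccagactc
Gas6, 37 bases from the 3′ end: CATGcttctttctgactctaa

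All 13 of these tags lie in 3′ untranslated regions, and each matched its gene exactly. On the mouse genome GRCm38 the main *Axl* tag is at chr7:25757351-25757371 on the minus strand, in exon 20. The main tag of *Fgfr2* is at chr7:130162580-130162600 on the minus strand, in exon 16. The main tag of *Fgfr1* is at chr8:25574593-25574613 on the plus strand, in exon 18. That of *Met* is at chr6:17573911-17573931 on the plus strand, in exon 22, and that of *Gas6* is at chr8:13465411-13465431 on the minus strand, in exon 15. The *Egfr* tags are at chr11:16913697-16913717 and chr11:16917882-16917902 on the plus strand, both in exon 28, and the *Ddr2* tags at chr1:169973999-169974019 and chr1:169977636-169977656 on the minus strand, both in exon 18. The tag of *Pdgfra* is at chr5:75198136-75198156 on the plus strand, in exon 23, that of *Erbb2* at chr11:98436770-98436790 on the plus strand, in exon 27, and that of *Erbb3* at chr10:128567891-128567911 on the minus strand, in exon 28. The second *Axl* tag is at chr7:25758093-25758113, in the same exon as the first. The tags of *Pdgfrb* are not printed.

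The comparison of GC-2spd (ts) with GC-1spg was made to see which genes differ between the lines that are labelled as an earlier and a later germ cell stage. Of the 10 receptors, 3 were called higher in GC-2spd (ts), namely *Fgfr2*, *Axl* and *Pdgfrb*, and 0 were called lower. A gene was called at a false discovery rate (FDR) of at most 0.001 in the two-sided Audic-Claverie test with a log2 ratio of 1 or more in either direction. By this rule 11.7% of the 14450 genes were called higher and 7.84% lower. Among the 7100 genes with at least 100 tags, 16.5% were called higher and 8.77% lower, 25.3% in all; over the 14450 genes 19.5% were called in either direction. The median log2 ratio of the 10 receptors, with 0.5 tags added to both counts, was 0.74, beside 0.13 over all genes. These values describe the listed receptors and are no test of them as a group.

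**Figure D1:**
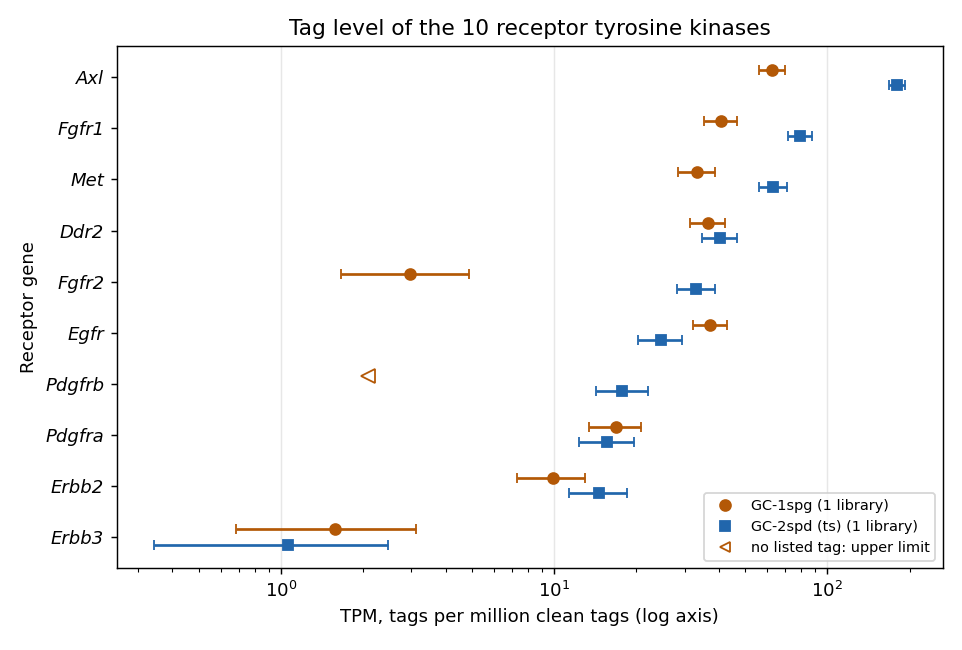
Level of each receptor in the GC-1spg library (circles) and the GC-2spd (ts) library (squares), in TPM on a log axis; lines are exact 95% Poisson intervals, and the open triangle is the upper limit for *Pdgfrb* in GC-1spg, which had no listed tag. *Fgfr2*, *Pdgfrb* and *Axl* lie furthest apart between the libraries, while the intervals of *Pdgfra*, *Ddr2*, *Erbb2* and *Erbb3* overlap.

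The 10 receptors together held 1227 tags in GC-1spg (242 TPM) against 2219 tags in GC-2spd (ts) (469 TPM) for a log2 ratio of 0.96 (95% interval 0.86 to 1.06). The 3 called receptors, which the difference itself picked out, held 334 and 1090 of these tags. The other 7 held 893 and 1129 for a log2 ratio of 0.44 (0.31 to 0.57).

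By unambiguous tags, *Axl* was the most abundant receptor of the 10 in both libraries. Tags shared with other genes, which were many for *Fgfr1* and *Ddr2*, do not enter this order. Tag profiling takes about 1 tag from each transcript molecule, so levels in TPM are not divided by transcript length. In GC-1spg, *Axl* at 62.9 TPM was followed by *Fgfr1*, *Egfr*, *Ddr2* and *Met* between 40.8 and 33.3 TPM, and no neighbours among these 4 differed beyond counting error. *Pdgfra*, *Erbb2*, *Fgfr2*, *Erbb3* and *Pdgfrb* came after them, and of these neighbours *Fgfr2* and *Erbb3* could not be told apart, nor *Erbb3* and *Pdgfrb*, whose upper limit of 2.07 TPM, explained below, lies above *Erbb3* at 1.58 TPM. In GC-2spd (ts), *Axl* at 180 TPM was followed by *Fgfr1*, *Met*, *Ddr2*, *Fgfr2*, *Egfr*, *Pdgfrb*, *Pdgfra*, *Erbb2* and *Erbb3*. The pairs *Ddr2* and *Fgfr2*, *Pdgfrb* and *Pdgfra*, and *Pdgfra* and *Erbb2* did not differ beyond counting error there. *Axl* made up 26.0% of the receptor tags in GC-1spg (exact 95% interval 23.6 to 28.5) and 38.3% in GC-2spd (ts) (36.3 to 40.4). *Egfr* made up 15.4% (13.4 to 17.5) and 5.23% (4.34 to 6.24), while the share of *Fgfr1* was 16.9% in both. Against all genes, *Axl* lay above 86.5% of them in GC-1spg and above 95.8% in GC-2spd (ts), *Fgfr2* above 34.8% and 73.1%, and *Erbb3* above 27.4% and 24.2%.

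**Figure D2:**
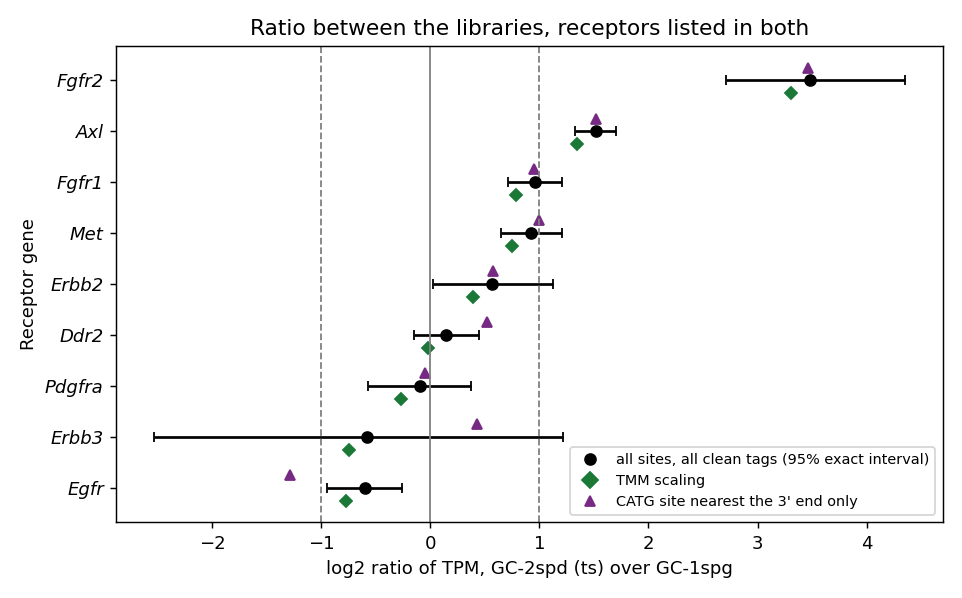
Log2 ratio of TPM, GC-2spd (ts) over GC-1spg, of the 9 receptors listed in both libraries; circles with lines are the ratio to all clean tags with its exact 95% interval, diamonds the ratio after TMM scaling and triangles the ratio from the CATG site nearest the 3′ end alone. *Fgfr2* and *Axl* lie beyond the dashed line at 1 on all 3 scales, *Fgfr1* and *Met* lie inside it on all 3, and *Egfr* passes the line at -1 only with the nearest site.

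The Pdgf receptors bind dimers of the Pdgf chains, and the alpha receptor accepts more of those chains than the beta receptor does. *Pdgfra* had 85 tags in GC-1spg (16.8 TPM) against 74 in GC-2spd (ts) (15.7 TPM) for a log2 ratio of -0.098 (-0.57 to 0.37). *Pdgfrb*, on chromosome 18, had no listed tag in GC-1spg against 84 in GC-2spd (ts) (17.8 TPM, 14.2 to 22.0). In GC-2spd (ts) the pair was thus at a similar level, and in GC-1spg 1 of the pair was at 0. The deposited files list no tag with fewer than 2 copies, so an unlisted gene can still have held single copies of its tags. Allowing 1 such copy for each of the 5 distinct *Pdgfrb* tags seen in GC-2spd (ts), the one-sided 95% Poisson limit was 10.5 tags, or 2.07 TPM, in GC-1spg. The 17.8 TPM of GC-2spd (ts) was 8.57-fold above that limit. Counting error of the 17.8 TPM is not in this ratio, so it is no lower bound. The same holds for the ratios to an upper limit given for other genes below. The FDR of *Pdgfrb*, 8.0e-26, came from the Audic-Claverie test on the listed counts of 0 and 84, without the allowance for single copies. Its tags came from 4 CATG sites, with 73 copies at the site nearest the 3′ end and 11 at 3 sites in the coding sequence. *Pdgfra* was spread more evenly. Its site nearest the 3′ end held 34 and 31 copies, and sites 2377 and 609 bases from the end 12 and 19 and 18 and 9. A site in coding exon 16 held 17 and 15 copies. It is carried by 2 of the 9 transcripts, and the longest coding transcript is not among them. With the longest transcript alone, *Pdgfra* had 125 tags over both libraries, against 159 in the main count.

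The ligands of this pair differed more than *Pdgfra*. *Pdgfa* rose from 9 to 60 tags for a log2 ratio of 2.84 (1.82 to 4.04), and *Pdgfb* fell from 64 to 4 for a log2 ratio of -3.90 (-5.82 to -2.47). *Pdgfd*, whose product is known as a ligand of the beta receptor, had no listed tag in GC-1spg against 29 in GC-2spd (ts). The level in GC-2spd (ts) was 4.01-fold above the upper limit in GC-1spg. *Pdgfc* had 120 and 152 tags for a log2 ratio of 0.44 (0.088 to 0.80) and no call. Of the 4 Pdgf genes, 2 were called higher and 1 lower, beside 11.7% and 7.84% of all genes.

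The receptors of the epidermal growth factor family pair with each other, and Erbb3 has little kinase activity of its own and signals through its partners. *Egfr* had 189 tags in GC-1spg (37.3 TPM) against 116 in GC-2spd (ts) (24.5 TPM) for a log2 ratio of -0.60 (-0.95 to -0.26, FDR 0.00105). *Erbb2*, a receptor with no ligand of its own, had 50 and 69 tags (9.86 and 14.6 TPM) for a log2 ratio of 0.57 (0.020 to 1.12). *Erbb3* had 8 and 5 tags (1.58 and 1.06 TPM), and its interval of -2.53 to 1.22 allows a difference in either direction. None of these 3 receptors was called. *Egfr* missed the FDR threshold narrowly and also lay inside the threshold on the log2 ratio.

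Of the 11 ligand genes of this family, 9 were listed, 2 were called higher and 2 lower, with 11.7% and 7.84% over all genes. *Hbegf*, heparin-binding EGF-like growth factor, had 33 and 80 tags for a log2 ratio of 1.38 (0.78 to 2.01). *Nrg1*, a neuregulin that binds Erbb3, rose from 31 to 141 tags for a log2 ratio of 2.29 (1.72 to 2.90). The 2 that fell were epiregulin and betacellulin, both ligands of Egfr. *Ereg* went from 314 to 13 tags for a log2 ratio of -4.49 (-5.42 to -3.70), and *Btc* from 59 to 3 for a log2 ratio of -4.20 (-6.51 to -2.58). *Ereg* alone held 314 of the 476 tags of this family in GC-1spg, and *Nrg1* 141 of the 282 in GC-2spd (ts).

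Fgf receptors bind Fgf ligands together with heparan sulfate, and alternative exons in the ligand-binding part set which ligands each form accepts. *Fgfr1* had 207 tags in GC-1spg (40.8 TPM) against 375 in GC-2spd (ts) (79.3 TPM). Its log2 ratio of 0.96 (0.71 to 1.21, FDR 4.7e-14) passed the FDR threshold but lay below 1, so it was not called. *Fgfr2* rose from 15 tags (2.96 TPM, 1.66 to 4.88) to 156 (33.0 TPM, 28.0 to 38.6), which is 11.2-fold, with a log2 ratio of 3.48 (2.71 to 4.35, FDR 1.1e-31). The sum of both receptors was thus mostly *Fgfr1* in GC-1spg, and *Fgfr2* had a far larger part of it in GC-2spd (ts). The main tag of *Fgfr2* held all 15 copies in GC-1spg against 147 in GC-2spd (ts), and is carried by 4 of the 27 annotated transcripts. The main site of *Fgfr1* held 196 and 337 copies and is carried by 7 of 19 transcripts. Both lie in the 3′ untranslated region and not in the alternative exons that set ligand choice, so these tags do not separate those receptor forms.

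Of the 22 genes of the Fgf family that were counted as ligand genes, 9 were listed, 2 were called higher and 5 lower, where all genes gave 11.7% and 7.84%. They were taken by family name, and not all of them encode secreted ligands, as given below for *Fgf13*. *Fgf5* had 1201 tags in GC-1spg (237 TPM) against no listed tag in GC-2spd (ts), 94.5-fold above the upper limit there. *Fgf10* fell from 71 to 5 tags for a log2 ratio of -3.73 (-5.39 to -2.44). *Fgf13*, which encodes an intracellular member of the family, had 47 tags in GC-1spg against none listed in GC-2spd (ts), and *Fgf11* (14) and *Fgf18* (15) were likewise listed in GC-1spg only. The called ligands in the other direction were *Fgf7* and *Fgf2*. *Fgf7*, keratinocyte growth factor, had 3 and 78 tags for a log2 ratio of 4.80 (3.20 to 7.11), and *Fgf2* had 5 and 30 for a log2 ratio of 2.69 (1.31 to 4.41). *Fgf7* and *Fgf10* are both known to act on a form of the Fgfr2 protein, and they moved in opposite directions here.

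**Figure D3:**
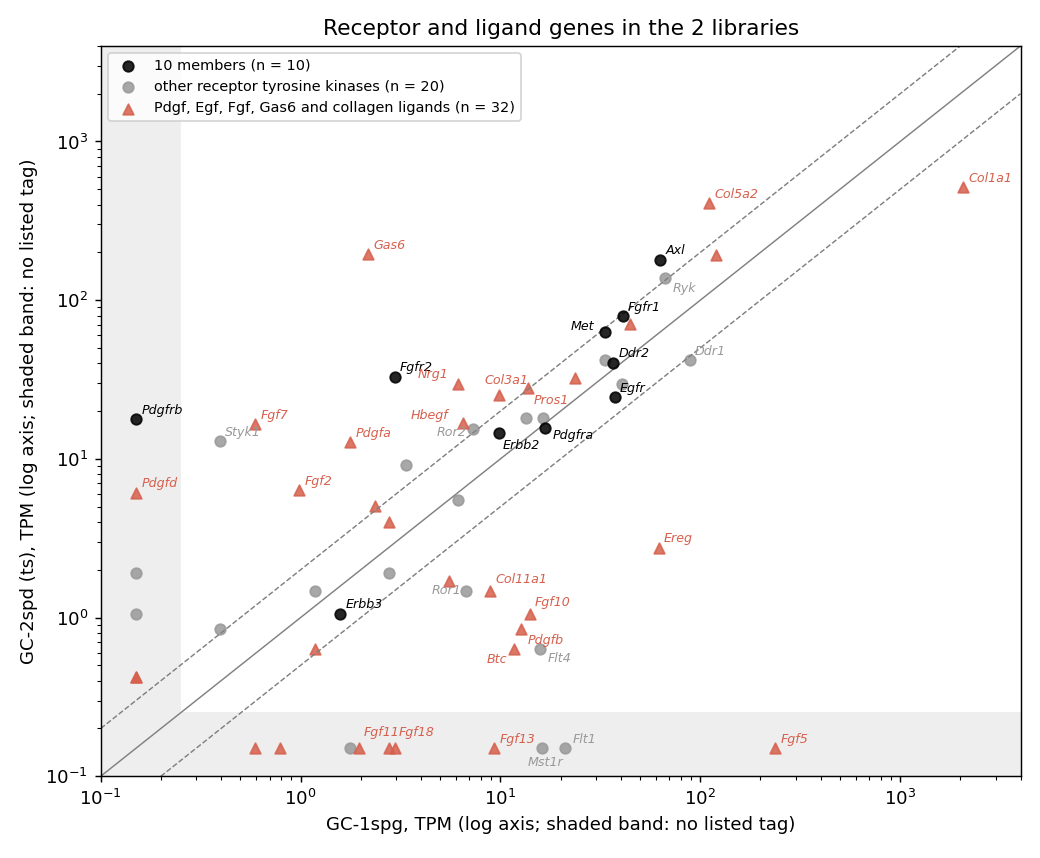
Level in GC-1spg (x axis) and GC-2spd (ts) (y axis), both in TPM on log axes, of the 10 receptors (black), 20 other receptor tyrosine kinases (grey) and 32 ligand genes (red triangles); shaded bands hold genes with no listed tag in 1 library, dashed lines mark a 2-fold difference, and every receptor of the 10 and every called gene has its name. The ligands *Gas6*, *Ereg* and *Fgf5* lie further from the diagonal than *Axl*, *Egfr* and *Fgfr1* do.

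Met is the receptor for hepatocyte growth factor. *Met* had 169 tags in GC-1spg (33.3 TPM) against 299 in GC-2spd (ts) (63.3 TPM) for a log2 ratio of 0.92 (0.65 to 1.21, FDR 9.5e-11). Like *Fgfr1* it passed the FDR threshold and not the threshold on the ratio. The site 49 bases from the 3′ end held 153 and 283 copies. *Hgf* had no unambiguous listed tag in either library.

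In GC-2spd (ts), *Axl* had the most tags among the 10 receptors and the 35 other receptor tyrosine kinase genes looked at. *Gas6* had the most there among the 50 ligand genes looked at, apart from collagens. *Axl* rose from 319 tags (62.9 TPM, 56.2 to 70.2) to 850 (180 TPM, 168 to 192), which is 2.86-fold, with a log2 ratio of 1.52 (1.33 to 1.71, FDR 5.5e-63). *Gas6*, a vitamin K-dependent protein that bridges Axl to phosphatidylserine on membranes, rose from 11 tags (2.17 TPM, 1.08 to 3.88) to 920 (195 TPM, 182 to 208), which is 89.7-fold, with a log2 ratio of 6.49 (5.64 to 7.50). The receptor was thus well above its ligand in GC-1spg, and both stood at a like level in GC-2spd (ts). The main *Gas6* tag shown above held 8 and 838 of these copies. *Pros1*, protein S, a ligand of the related receptors Tyro3 and Mertk, had 70 and 132 tags for a log2 ratio of 1.02 (0.59 to 1.46), and its call was lost, among others, under TMM scaling (log2 0.84) and exact matching (0.98). *Tyro3* had 17 and 43 tags for a log2 ratio of 1.44 (0.60 to 2.34, FDR 0.00119), and *Mertk* 14 and 9. Neither was called.

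The *Axl* count did not rest on 1 tag alone. The site 78 bases from the 3′ end went from 253 to 692 copies for a log2 ratio of 1.55 (1.34 to 1.77), and the site 820 bases from the end from 48 to 121 for a log2 ratio of 1.44 (0.94 to 1.95). The first took 79.3% of the *Axl* copies in GC-1spg (74.4 to 83.6) and 81.4% in GC-2spd (ts) (78.6 to 84.0). Both sites thus gave about the same ratio. The test counts no spread between cultures. With an assumed coefficient of variation between replicates of 0.2 (edgeR's exact test), the call of *Axl* was lost (FDR 0.00464), and at 0.4 that of *Fgfr2* was lost too (FDR 0.0118). Of the *Axl* tag copies, 96.8% were in the 3′ untranslated region.

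Ddr2 binds fibrillar collagen and is known from fibroblasts and other connective tissue cells. *Ddr2* had 185 tags in GC-1spg (36.5 TPM) against 191 in GC-2spd (ts) (40.4 TPM) for a log2 ratio of 0.15 (-0.15 to 0.45) and no call. Under TMM scaling the ratio was -0.026, so it has no direction. Its copies came from 15 sites, of which a pair with unequal shares in the libraries, picked after their values were seen, is described here. The site 1692 bases from the 3′ end held 82 of 185 copies in GC-1spg, 44.3% (37.0 to 51.8), and 58 of 191 in GC-2spd (ts), 30.4% (23.9 to 37.4). The site 5329 bases from the end held 22 copies, 11.9% (7.60 to 17.4), and 48 copies, 25.1% (19.1 to 31.9) for a log2 ratio of 1.23 (0.47 to 2.03). The tags of these sites are those shown above. The intervals of the second site do not overlap between the libraries, and those of the first overlap slightly.

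Of the 10 fibrillar collagen genes, 8 were listed, 2 were called higher and 2 lower (all genes: 11.7% and 7.84%). *Col1a1* fell from 10465 tags (2063 TPM) to 2425 (513 TPM) for a log2 ratio of -2.01 (-2.07 to -1.94), and *Col11a1* from 45 to 7. *Col5a2* rose from 562 to 1931 tags for a log2 ratio of 1.88 (1.75 to 2.02), and *Col3a1* from 50 to 120 for a log2 ratio of 1.36 (0.88 to 1.87). *Col1a2*, whose chain joins that of *Col1a1* in type I collagen, had 605 and 907 tags for a log2 ratio of 0.69 (0.54 to 0.84). *Col5a1*, at 225 and 335 tags, had a log2 ratio of 0.68 (0.43 to 0.93). *Col1a2* and *Col5a1* passed the FDR threshold and not the threshold on the ratio. When only the last CATG site of each transcript was counted, *Col3a1* had 3 and 3 tags (log2 0.10) and *Col1a1* 43 and 18 (FDR 0.0089), and both calls were lost.

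**Figure D4:**
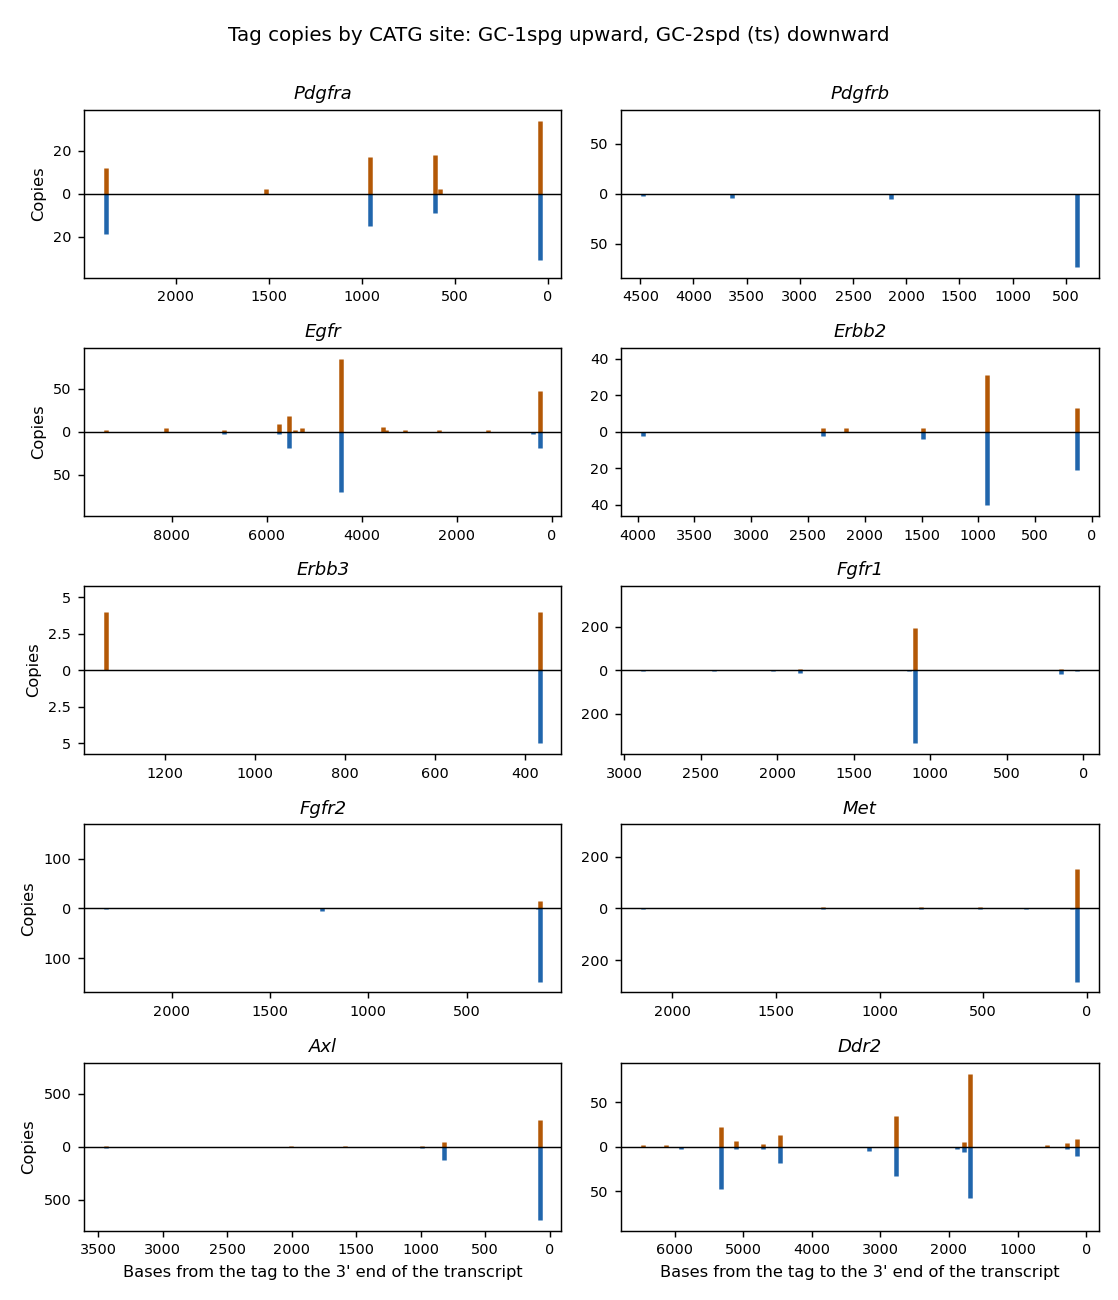
Copies of the unambiguous sense tags of each receptor by the distance of the CATG site from the 3′ end of the transcript, in bases, with GC-1spg above and GC-2spd (ts) below the line; each panel has its own axes. *Fgfr1*, *Fgfr2*, *Met* and *Axl* have 1 main site each, and *Ddr2*, *Egfr* and *Pdgfra* have several.

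Of the 3446 receptor tag copies in both libraries, 95.8% lay in 3′ untranslated regions. In 8 of the 10 receptors 1 site held more than 50% of the copies, and in 6 the leading site was the one nearest the 3′ end. The leading site of *Fgfr1* was the 4th from the end and that of *Egfr* the 26th, in a transcript of 10208 bases with 58 CATG sites. The *Egfr* site 256 bases from the 3′ end had 48 copies in GC-1spg against 19 in GC-2spd (ts) for a log2 ratio of -1.24 (-2.08 to -0.44). The site 4441 bases from the end had 85 and 70 for a log2 ratio of -0.18 (-0.66 to 0.30). The difference between these ratios was not tested. With the nearest site of each transcript alone, *Egfr* was called lower, at a log2 ratio of -1.29.

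Sense tags that other genes share were left out of the sums, and for *Fgfr1* and *Ddr2* they were many. *Fgfr1* transcripts hold a tag with 1205 copies in GC-1spg against 1196 in GC-2spd (ts) that also occurs in 455 other genes, and in all 1230 and 1224 copies were left out. *Ddr2* transcripts hold a tag with 271 and 163 copies that occurs in 59 other genes, and in all 310 and 179 copies were left out. How many of these copies came from the receptors is not known from the tags. For *Egfr* 13 and 12 copies and for *Fgfr2* 3 and 0 copies were left out, and for the other 6 receptors none.

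Among 35 other receptor tyrosine kinase genes, 20 were listed, 3 were called higher and 5 lower, against 11.7% and 7.84% of all genes. With exact matches alone 4 were called higher and 4 lower, since *Ddr1* turned. *Styk1* rose from 2 to 61 tags for a log2 ratio of 5.03 (3.12 to 8.11). *Ryk* and *Ror2*, both Wnt receptors, had 339 and 654 tags and 37 and 73 tags, with log2 ratios of 1.05 (0.86 to 1.24) and 1.08 (0.49 to 1.69). Both calls were lost under TMM scaling (0.88 and 0.91), DESeq2 size factors and scaling to unambiguous sense tags. Among the called genes in the other direction were *Flt1* and *Flt4*, receptors for vascular endothelial growth factors. *Flt1* had 107 tags in GC-1spg against none listed in GC-2spd (ts), 5.88-fold above the upper limit there. *Flt4* had 80 and 3 for a log2 ratio of -4.64 (-6.94 to -3.04). *Mst1r*, the relative of *Met* that binds macrophage-stimulating protein, had 82 tags in GC-1spg against none listed in GC-2spd (ts), 12.1-fold above the upper limit there. *Met* itself was listed in both libraries, as given above. *Ror1* fell from 34 to 7 tags for a log2 ratio of -2.18 (-3.60 to -0.98).

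*Ddr1*, the other collagen receptor of this kind, was called lower, with 448 and 197 tags and a log2 ratio of -1.08 (-1.33 to -0.84). This direction depended on a single tag. Of the 448 copies in GC-1spg, 436 came from 1 tag that matched *Ddr1* with 1 mismatch and had no copy in GC-2spd (ts). With exact matches alone *Ddr1* had 12 and 197 tags and was called higher, at a log2 ratio of 4.14. *Igf1r*, the receptor for insulin-like growth factors, had 170 and 197 tags, *Insr* 83 and 86, *Lmtk2* 206 and 140 and *Fgfrl1* 68 and 86, and none of these 4 was called.

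Of 70 genes for ligand activation, adaptors and receptor turnover, 61 were listed, 5 were called higher and 3 lower, a share no larger than the 11.7% and 7.84% of all genes. *Cd44*, a hyaluronan receptor that also acts with Met, rose from 165 to 1464 tags for a log2 ratio of 3.25 (3.02 to 3.49). Among adaptors and proximal effectors, *Gab2*, a docking protein, rose from 8 to 52 tags, *Sos2*, a Ras activator, from 22 to 61, and *Rasa1*, a Ras inhibitor, from 58 to 163. *Socs5*, which promotes the breakdown of Egfr, rose from 92 to 230 tags for a log2 ratio of 1.42 (1.07 to 1.79), a call that was lost with the nearest CATG site alone (5 and 7 tags). Genes with opposite known effects on the pathway were thus among those that rose. The 3 that fell were *Grb10*, an adaptor that dampens signalling, *Plat*, a plasminogen activator, and *Ptprj*, a receptor phosphatase known to act on receptor tyrosine kinases. *Grb10* went from 237 to 62 tags for a log2 ratio of -1.83 (-2.26 to -1.42), *Plat* from 357 to 67 for a log2 ratio of -2.31 (-2.71 to -1.93), and *Ptprj* from 74 to 7 for a log2 ratio of -3.30 (-4.66 to -2.19). Of the adaptors that were not called, *Grb2* had 428 and 544 tags, *Crk* 531 and 716, *Ptpn11* 262 and 386, *Frs2*, the docking protein of Fgf receptors, 150 and 230, and *Shc1* 84 and 114. *Frs2* was called higher with the nearest site alone (log2 1.17). *Src* had 313 and 157 tags and *Ptpn12* 481 and 233, with log2 ratios of -0.89 and -0.94, and both were called lower under TMM scaling and DESeq2 size factors. *Errfi1*, an inhibitor of Egfr, had 176 and 294 tags, and *Cbl*, a ubiquitin ligase for activated receptors, 136 and 147.

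The labelled cell type was set against marker genes. Of 16 germ cell markers 2 had a listed tag, and *Dazl*, *Ddx4* and *Sycp3* had none in either library. The germ cell list summed to 65.3 TPM in GC-1spg against 14.0 in GC-2spd (ts), nearly all of it from *Uchl1* (329 and 66 tags). Of 10 fibroblast markers, 7 were listed, at 3753 and 2612 TPM in sum, with *Col1a1* and *Col1a2* among them. The 10 Sertoli cell markers had 7 listed (318 and 97.3 TPM), the 6 peritubular myoid markers all 6 (13.0 and 123 TPM, mostly *Acta2* at 50 and 555 tags), the 7 Leydig cell markers 2 (0.789 and 1.06 TPM), and the 5 markers of leukocytes and endothelium 0. The myoid sum moved with *Pdgfrb*, but rested on *Acta2*, which had 0 and 3 tags with the nearest CATG site alone. *Tagln*, another myoid marker, had 0 and 3 tags in that sum, but 5 and 219 (log2 5.55) with sense matches preferred over antisense matches. *Des*, also a myoid marker, fell from 11 to 4 tags. The Sertoli sum fell, mostly with *Clu* (902 and 262 tags) and *Wt1* (620 tags in GC-1spg and none listed in GC-2spd (ts)), but *Gata4* rose from 29 to 138 tags. Of the Sertoli markers 1 was called higher and 3 lower. The fibroblast sum followed *Col1a1*, and the median log2 ratio of that list was 0.41. Of the fibroblast markers 2 were called higher and 2 lower. *Dcn* had 704 and 0 copies by exact matches, and 6 and 2 more with 1 mismatch. *Vim* rose from 984 to 2897 tags, but had 0 and 2 with the longest transcript of each gene alone. The part of these differences in the receptor values was not tested, and in such bulk libraries fewer cells of a type and less RNA per cell cannot be told apart.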

How the data were processed

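The authors sequenced 1 tag library per cell line, filtered out tags that were seen once, were of low quality or held adaptor, and deposited the others with a raw count per tag and the same value as TPM, the count per 1000000 clean tags. The count column was used here, and TPM was computed from it after matching. The files hold no coordinates. Clean tags were matched to the CATG+17 tags of 141767 transcripts of GENCODE release M21 (genome GRCm38) on both strands, with at most 1 mismatch and exact matches first. Sense tags of 1 gene only were summed. These held 54.7% (GC-1spg) and 57.9% (GC-2spd (ts)) of the clean tags. The authors had matched to UniGene, which was not used here.

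Genes were called by the two-sided Audic-Claverie test with Benjamini-Hochberg adjustment over all 14450 genes, and a gene at 0 was set to 0.01 TPM in the ratio. With 1 library per line, edgeR's quasi-likelihood test could not be fitted and no replicate error is known. Intervals (95%) are exact: conditional binomial (Clopper-Pearson) for ratios and shares, Poisson for levels. They cover counting error only. Since PCR copies are not independent molecules, the intervals can be too narrow even for that. The test and intervals were tried on simulated Poisson counts. These held no spread between cultures, no PCR copies and no removal of tags seen once, so those limits were not tried. Positions of tags were read in the longest coding transcript that holds them.

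The receptors and gene lists were chosen with earlier results of these data known. All 10 receptors were named. Of the other receptor tyrosine kinases and the ligands, the called genes and those with at least 100 tags were named. Of the adaptors and regulators all called genes were named, but only some of the uncalled genes with at least 100 tags. *Adam10*, *Pik3ca* and *Yes1* are among those left out. Of the marker genes only some were named, called or not. *Hgf*, *Tyro3*, *Mertk*, *Uchl1*, *Acta2*, *Dcn* and *Vim* were chosen after their values were seen. The 15 alternatives covered matching (exact, both strands, sense preferred, nearest site, longest transcript, no pseudogenes), scaling (TMM, DESeq2, unambiguous sense tags), 0.5 tags added, a minimum of 10 tags, an exact binomial test, and the exact test of edgeR at an assumed biological coefficient of variation (BCV) of 0.1, 0.2 or 0.4. R 4.3.3, edgeR 4.0.16, DESeq2 1.42.0, Python 3.11.15, numpy 2.4.6, pandas 2.3.3 and scipy 1.17.1 were used.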

Additional observations from a re-analysis of the deposited data

Results flagged for a closer look

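Tags on the antisense strand of the receptors entered no sum above. Their copies passed the limit that a count of 0 allows (more than 3 copies) in 16 cases over 9 receptors. By far the most were on *Axl*, with 316 antisense copies in GC-1spg against 548 in GC-2spd (ts), which is 42.5% of the copies of both strands over both libraries. For all genes that share was 11.6%, and for the 10 receptors together 25.2%. The 25.2% rests mostly on *Axl*, which held 316 of the 462 antisense copies of the 10 receptors in GC-1spg. In GC-2spd (ts) *Axl* held 548 of 696. Of the *Axl* antisense copies, 306 and 522 began at the CATG of a listed sense tag. CATG reads the same on both strands, so such a tag runs away from the site in the opposite direction. The main antisense tag holds 292 and 487 copies and lies at chr7:25757368-25757388 on GRCm38, where it shares its 4 CATG bases with the main sense tag. It reads 5′ to 3′ on the strand opposite to the messenger RNA, with the *Nla*III site in capitals.
Axl, antisense: CATGgccccaaatgaggggag

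The antisense copies of *Axl* were higher in GC-2spd (ts), with a log2 interval of 0.69 to 1.10, below the interval of the sense copies. *Pdgfra* had 25 antisense copies in GC-1spg against 7 in GC-2spd (ts), *Egfr* 22 and 10, and *Met* 26 and 16. *Fgfr1* had 19 and 36, *Fgfr2* 11 and 18, and *Ddr2* 41 and 48. *Erbb2* had 6 and *Erbb3* 7 in GC-2spd (ts), and *Pdgfrb* had none in either library. Of the 6 antisense tags with at least 20 copies, 0 overlapped an annotated gene on the other strand. What these tags come from was not tested.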

How the results depend on the processing

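Over the 15 alternatives the calls of *Pdgfrb* held throughout. *Fgfr2* lost its call only at an assumed BCV of 0.4 (FDR 0.0118), and *Axl* at 0.2 (FDR 0.00464) and 0.4. Of 10 receptors 3 were called higher, and 1 at a BCV of 0.4; 0 were called lower, and 1, *Egfr* at -1.29, with the nearest 3′ site only. The direction of *Erbb3* turned with both strands (0.36) and with the nearest site (0.42), and that of *Ddr2* under TMM (-0.026) and DESeq2 scaling (-0.016). The median ratio of genes listed in both libraries moved by -0.17 under TMM and -0.16 under DESeq2. The share of calls that were higher was 59.8% by clean tags, 47.2% under TMM, 48.0% under DESeq2 and 53.7% by unambiguous sense tags.

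With the nearest 3′ site only, *Col1a1*, *Col3a1*, *Socs5*, *Pros1* and *Acta2* lost their calls and *Frs2* and *Socs2* gained one; the cause was not tested. At assumed BCVs of 0.2 and 0.4 the calls over all genes fell from 1684 to 511 and 108 higher, and from 1133 to 489 and 136 lower. Other receptor tyrosine kinases called higher went from 3 to 1 and 0, and from 3 to 1 under all 3 other scalings; those called lower went from 5 to 3 and 2. Ligands called higher went from 10 to 6 and 1, and those called lower from 10 to 2 at 0.4. Adaptors and regulators called higher went from 5 to 2 and 0, and those called lower from 3 to 0 at 0.4, but to 6 under TMM, 6 under DESeq2 and 5 by unambiguous sense tags.

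No paired analysis was possible because each line has 1 library, so no analysis without a library was made either. For *Erbb3*, at 8 and 5 tags, no difference was detectable at this depth.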
